A study of Homo sapiens with 10 samples.

Results

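The mRNAs of 6 membrane-scaffold proteins were examined in vesicles and cells of the human prostate cancer line PC3: the caveolins CAV1 and CAV2, the cavins CAVIN1 (also called PTRF) and CAVIN3, and the flotillins FLOT1 and FLOT2. They were chosen by gene symbol among the 94946 entries of 1 count table, and all 6 had an entry. PC3 is an established line of prostate cancer epithelial cells grown from a bone metastasis. The vesicle groups were extracellular vesicles (EVs, membrane-bound particles released by cells) pelleted by centrifugation at a speed labelled 2.8K (EV 2.8K, n = 3), 10K (EV 10K, n = 3) or 100K (EV 100K, n = 3), and they were set against whole PC3 cells (n = 1). The speeds carry no unit in the labels. The cells of all groups shared a medium with fetal bovine serum, and no treatment, genotype or allele is named. Replicates are the set numbers in the labels. No label states that each set is a culture of its own, so p-values measure the spread between these libraries, which may be technical.

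Caveolae are small flask-shaped pits of the plasma membrane. Caveolin proteins insert into the inner leaflet and oligomerise, and cavins form a coat on the cytoplasmic face, with cavin-1 required for the pits to form. Flotillins are relatives of the prohibitin and stomatin proteins that assemble into separate membrane microdomains, and flotillin proteins are widely used as markers of EV preparations. PC3 cells are known for caveolin-1 protein without cavin-1 or caveolae. The values here are of mRNA, not of protein.

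Library totals ranged from 5424964 to 28735081 counts, with the cell library the deepest and 2 of the EV 100K libraries the shallowest. Levels are CPM (counts relative to a library total of 1e+06) scaled by TMM factors, which correct for differences in composition between libraries. Epithelial markers (EPCAM, KRT8, KRT18, KRT19 and CDH1) summed to 1734 to 2109 CPM in EV 2.8K, 1508 to 1937 CPM in EV 10K, 796 to 893 CPM in EV 100K and 1364 CPM in cells, and CDH1 had no count in EV 10K. The prostate genes KLK3 and KLK2, which PC3 is known to lack, had no count in cells. Mitochondrially encoded genes took 4.81% to 12.9% of counts in EV 2.8K, 0.826% to 1.04% in EV 10K, 0.00544% to 0.00802% in EV 100K and 2.88% in cells. The library with 12.9% was EV 2.8K replicate 1, which also stood apart in CAV2.

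The caveolins and the flotillins are each a pair of paralogs, so their coding sequences were compared to see whether reads of 1 could be counted for the other. The longest run of identical bases was 12 for CAV1 and CAV2 and 13 for FLOT1 and FLOT2. The stretches of 90 coding bases around these runs, from GENCODE 29 transcripts (GRCh38), are shown in mRNA sense with the shared run in capitals, because they are where the members of a pair come closest. The caveolin pair lies on chromosome 7:
CAV1: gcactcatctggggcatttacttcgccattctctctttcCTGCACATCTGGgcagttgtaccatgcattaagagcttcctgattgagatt
CAV2: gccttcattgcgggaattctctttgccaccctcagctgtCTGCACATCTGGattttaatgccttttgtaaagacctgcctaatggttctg

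The flotillin stretches come from chromosome 6 for FLOT1 and chromosome 17 for FLOT2, and are shown because the ratio of these mRNAs is compared between pellets:
FLOT1: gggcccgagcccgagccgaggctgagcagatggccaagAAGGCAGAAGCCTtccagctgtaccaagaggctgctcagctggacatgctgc
FLOT2: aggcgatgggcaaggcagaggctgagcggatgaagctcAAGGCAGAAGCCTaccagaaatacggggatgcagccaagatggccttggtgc

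Of the stretches of 31 bases in the longest coding transcript, none of CAV1, FLOT1 or FLOT2 occurred in a transcript of another gene. The share was 7.25% for CAV2 and 2.71% for CAVIN1. It was 43.7% for CAVIN3, whose exons overlap AC068733.3 on the opposite strand over 557 of 1672 bases. That gene also had no count in the 10 libraries. The sources used here do not give how reads in overlapping genes or with several mapping places were counted, or whether strand was used.

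CAVIN1 encodes the cavin-1 coat protein and lies at chr17:42402452-42423517 on the minus strand of GRCh38. It had 0 counts in each of the 9 EV libraries and in the cell library. CAVIN3, at chr11:6318946-6320647 on the minus strand, encodes a cavin that binds protein kinase C delta, and it also had 0 counts in all 10 libraries. In the deepest library, that of the cells, a count of 0 allows up to 3 counts, or 0.104 CPM, and over the 117505445 counts of the 10 libraries together it allows 0.0255 CPM, both for counting error only. Such absence was not rare, since 4961 of 19969 protein-coding genes (24.8%) had no count in any library. Neither cavin entered a test. Of the remaining family, CAVIN2 and the muscle caveolin CAV3 had no count in any library.

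The muscle cavin CAVIN4 was the cavin with counts. It had 0, 4 and 10 counts in EV 2.8K, 107, 38 and 33 in EV 10K, 24, 26 and 28 in EV 100K, and 60 in cells. The 3 EV 2.8K libraries lay below all 6 other EV libraries on the CPM scale. The fitted log2 fold change was 3.47 (SE 1.51) in EV 100K over EV 2.8K and 4.13 (SE 1.55) in EV 10K over EV 2.8K, and neither passed (edgeR quasi-likelihood test, adjusted p = 0.103 and 0.131). With DESeq2 both passed (adjusted p = 0.0108 and 0.00653), and without EV 2.8K replicate 3 EV 100K over EV 2.8K did in edgeR (0.0462). These were the only passes, 2 of 15 alternatives for EV 100K over EV 2.8K and 1 of 15 for EV 10K over EV 2.8K.

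CAV1, the main structural protein of caveolae in non-muscle cells, lies at chr7:116524785-116561184 on the plus strand, 16244 bases beyond the end of CAV2. It had 951, 968 and 288 counts in EV 2.8K, 371, 417 and 232 in EV 10K, 112, 72 and 85 in EV 100K, and 1904 in cells. These are 72.8, 57.9 and 24.7 CPM in EV 2.8K, 41.5, 52.6 and 22.0 CPM in EV 10K, 15.7, 13.2 and 13.6 CPM in EV 100K, and 54.7 CPM in cells. All 3 EV 100K libraries lay below each of the other 7 libraries, while EV 2.8K and EV 10K overlapped, with replicate 3 the lowest in both.

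CAV1 averaged 14.2 ± 1.35 CPM in EV 100K and 51.8 ± 24.6 CPM in EV 2.8K (SD, n = 3 each), and fell by 1.88 on the log2 scale (SE 0.42, edgeR quasi-likelihood test, adjusted p = 0.00263). It was the 1 of 4 tested members called in this comparison, in which 25.8% of the 15525 genes tested passed. Against the mean of 38.7 ± 15.5 CPM in EV 10K (SD, n = 3), the EV 100K level was lower, with a log2 fold change of -1.45 (SE 0.42; adjusted p = 0.0315 by edgeR). Again CAV1 was the 1 member called, where 10.9% of all genes were. Between EV 10K and EV 2.8K its log2 fold change was -0.43 (SE 0.41) and did not pass (edgeR adjusted p = 0.638). None of the 4 members was called there, against 6.38% of all genes. In the joint test for any difference between the 3 pellets CAV1 passed alone among the members (edgeR adjusted p = 0.00864), where 23.3% of all genes did.

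The call of CAV1 against EV 10K was nearer to the threshold than that against EV 2.8K. Against EV 2.8K the call held in all 15 alternative settings, with log2 fold changes of -2.17 to -1.56. Against EV 10K it was lost without EV 10K replicate 1 (edgeR adjusted p = 0.0773) or replicate 2 (0.171), and without EV 100K replicate 1 (0.0765), replicate 2 (0.0995) or replicate 3 (0.0995). The log2 fold changes without those libraries were -1.53 to -1.16, with -1.45 when all were kept. Mitochondrial counts and the summed epithelial markers were lowest in the same EV 100K libraries, and their part in the difference was not tested. In pooled RNA of this kind, fewer vesicles that carry an mRNA cannot be told apart from less of it per vesicle, nor, in the cell library, fewer cells from less RNA per cell.

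CAV2, the partner that needs caveolin-1 to reach the plasma membrane, lies at chr7:116287380-116508541 on the plus strand. It had 4, 129 and 97 counts in EV 2.8K, 126, 123 and 121 in EV 10K, 104, 89 and 43 in EV 100K, and 570 in cells. On the CPM scale these are 0.306, 7.72 and 8.31 in EV 2.8K, 14.1, 15.5 and 11.5 in EV 10K, 14.6, 16.3 and 6.90 in EV 100K, and 16.4 in cells. The 4 counts of EV 2.8K replicate 1 have an exact Poisson 95% interval of 0.0834 to 0.784 CPM, below the level of the other 2. That interval treats reads as independent molecules, which they are not, so it understates the error of sampling. The reason for the low count was not tested. The EV 10K libraries all lay above the EV 2.8K libraries, whereas EV 100K overlapped both.

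No CAV2 difference passed the edgeR test. It differed by 1.31 on the log2 scale (SE 0.83, edgeR adjusted p = 0.416) for EV 10K over EV 2.8K and 1.19 (SE 0.83, adjusted p = 0.347) for EV 100K over EV 2.8K. Between EV 100K and EV 10K it was -0.13 (SE 0.82, edgeR adjusted p = 0.967). Without EV 2.8K replicate 1, EV 10K over EV 2.8K was 0.76 (edgeR adjusted p = 0.505) and EV 100K over EV 2.8K was 0.64 (adjusted p = 0.494). The standard errors are close to a doubling, so differences of that size were not detectable for CAV2 with these libraries.

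FLOT1 encodes flotillin-1 and lies at chr6:30727709-30742733 on the minus strand. It was the most deeply counted member, with 2788, 6297 and 4249 counts in EV 2.8K, 3182, 3045 and 4265 in EV 10K, 1696, 1602 and 1837 in EV 100K, and 9754 in cells. Its CPM were 213, 377 and 364 in EV 2.8K, 356, 384 and 405 in EV 10K, 238, 294 and 295 in EV 100K, and 280 in cells. EV 100K lay below EV 10K in every library, and EV 2.8K overlapped both. FLOT1 differed by -0.23 on the log2 scale (SE 0.22, edgeR adjusted p = 0.518) in EV 100K over EV 2.8K, -0.48 (SE 0.22, adjusted p = 0.195) in EV 100K over EV 10K, and 0.25 (SE 0.22, adjusted p = 0.599) in EV 10K over EV 2.8K. When only the 6 libraries compared were fitted, EV 100K over EV 10K passed at -0.49 (edgeR adjusted p = 0.0415).

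FLOT2 encodes flotillin-2, with which flotillin-1 forms hetero-oligomers, and lies at chr17:28879335-28897679 on the minus strand. It had 327, 810 and 532 counts in EV 2.8K, 625, 368 and 1004 in EV 10K, 358, 407 and 408 in EV 100K, and 1519 in cells. Its CPM were 25.0, 48.5 and 45.6 in EV 2.8K, 69.8, 46.5 and 95.4 in EV 10K, 50.3, 74.7 and 65.4 in EV 100K, and 43.6 in cells. The EV 100K libraries lay above the EV 2.8K libraries, by a narrow margin between the closest of them, and EV 10K overlapped both. FLOT2 differed by 0.65 on the log2 scale (SE 0.33, edgeR adjusted p = 0.160) in EV 100K over EV 2.8K and 0.82 (SE 0.33, adjusted p = 0.156) in EV 10K over EV 2.8K, and -0.16 (SE 0.32, adjusted p = 0.869) in EV 100K over EV 10K.

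**Figure D1:**
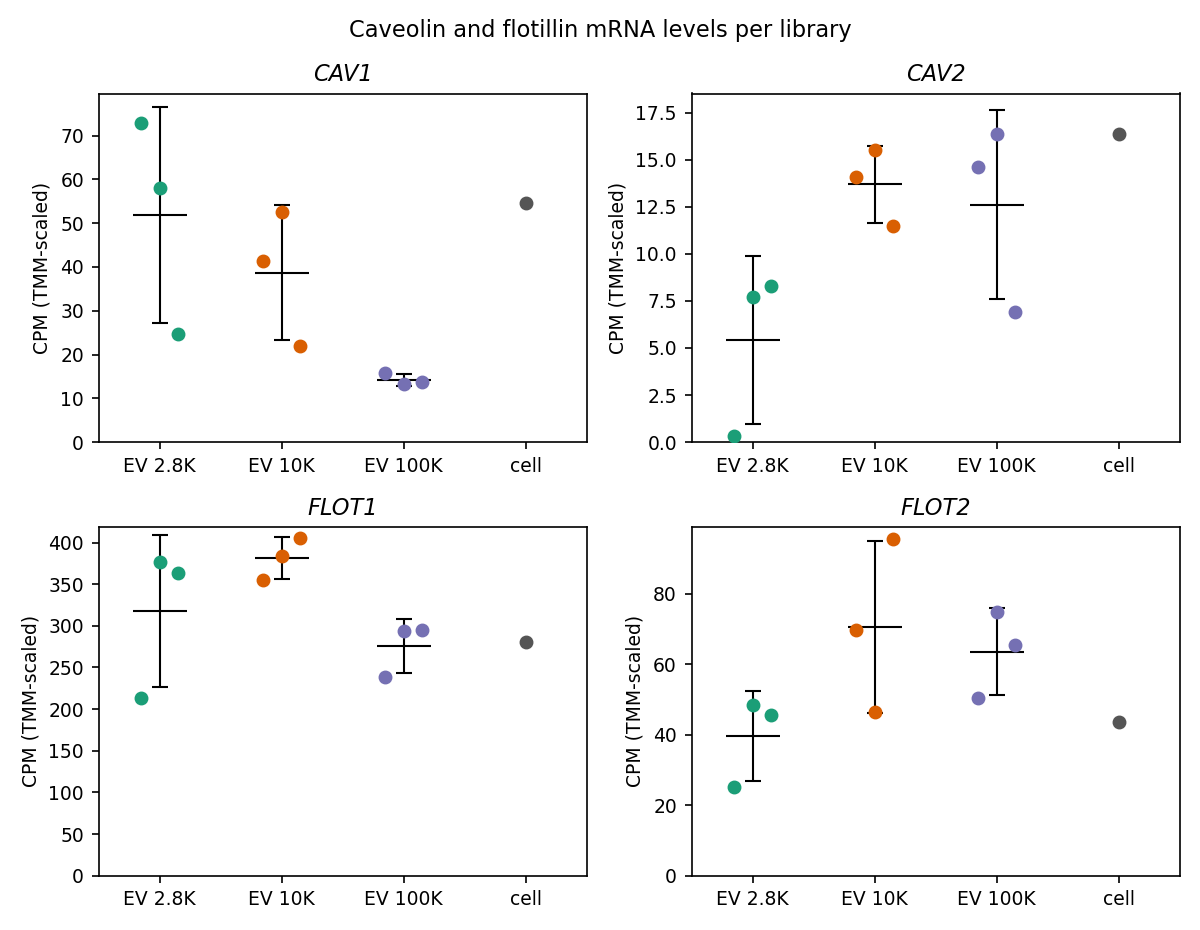
Levels of CAV1, CAV2, FLOT1 and FLOT2 in TMM-scaled CPM (y axis, from 0) for EV 2.8K, EV 10K, EV 100K and whole cells (x axis); each point is a library, the long bar the mean and the whiskers 1 SD of 3 libraries. The EV 100K points of CAV1 lie between 13.2 and 15.7 CPM, below all other libraries, and 1 EV 2.8K point of CAV2 lies at 0.306 CPM.

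**Figure D2:**
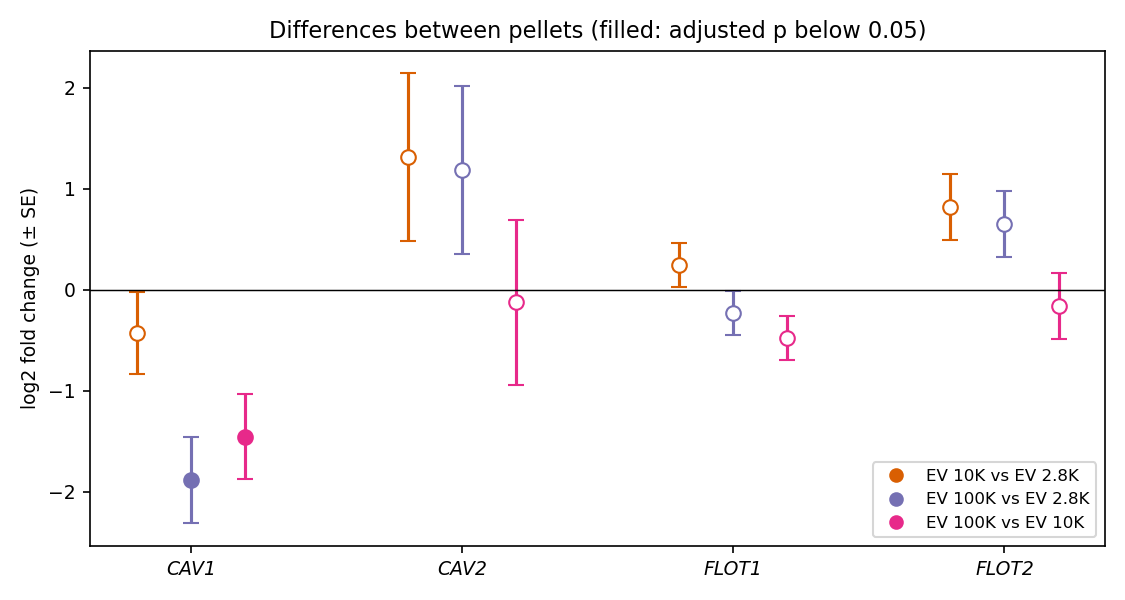
Log2 fold change from edgeR (y axis, ± SE) of the 4 tested members in the 3 comparisons of pellets; filled points passed at an adjusted p below 0.05. The filled points are CAV1 in EV 100K vs EV 2.8K (-1.88) and in EV 100K vs EV 10K (-1.45), and the widest error bars are those of CAV2.

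Levels of different genes were compared per kilobase of exons. In EV 2.8K, FLOT1 stood at 99.8 ± 28.5 CPM per kb, CAV1 at 12.7 ± 6.03, FLOT2 at 11.9 ± 3.83 and CAV2 at 0.786 ± 0.644 (SD, n = 3). CAV1 and FLOT2 were within their spread of each other in that pellet. In EV 10K the levels were 120 ± 7.83 CPM per kb for FLOT1, 21.2 ± 7.34 for FLOT2, 9.48 ± 3.79 for CAV1 and 1.98 ± 0.295 for CAV2. In EV 100K they were 86.5 ± 10.2 CPM per kb for FLOT1, 19.0 ± 3.69 for FLOT2, 3.48 ± 0.331 for CAV1 and 1.82 ± 0.726 for CAV2. The cell library had 87.9 CPM per kb for FLOT1, 13.4 for CAV1, 13.1 for FLOT2 and 2.36 for CAV2. CAV1 stood beside FLOT2 in EV 2.8K and in cells, and nearer to CAV2 in EV 100K. Using the length of the longest coding transcript left each of these orders as it was.

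Among protein-coding genes with counts, FLOT1 ranked 335 of 13348 in EV 2.8K, 288 of 12990 in EV 10K, 323 of 13760 in EV 100K and 288 of 13484 in cells by level per kilobase. The share of genes above CAV1 was 22.0% for EV 2.8K, 28.5% for EV 10K and 50.1% for EV 100K, against 21.0% for cells. Above FLOT2 it was 23.4% for EV 2.8K, 14.0% for EV 10K and 12.9% for EV 100K, against 21.4% for cells. Above CAV2 it was 78.4% for EV 2.8K, 66.1% for EV 10K and 63.2% for EV 100K, against 62.5% for cells.

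Ratios of counts within a library need no scaling between libraries, and ask whether the members of a pair moved differently. There were 0.00421, 0.133 and 0.337 CAV2 counts per CAV1 count in EV 2.8K, 0.340, 0.295 and 0.522 in EV 10K, 0.929, 1.24 and 0.506 in EV 100K, and 0.299 in cells. The EV 100K libraries lay above all EV 2.8K libraries, and the lowest of them overlapped EV 10K. The mean log2 ratio was 3.80 higher in EV 100K than in EV 2.8K. That difference was 1.97 without EV 2.8K replicate 1, which lay far below the rest, 4.39 without replicate 2 and 5.05 without replicate 3. An exact permutation test over the 3 pellets (two-sided, 1680 assignments of the 9 libraries, smallest possible p 0.00357) gave p = 0.0214, and 0.0643 after Benjamini-Hochberg adjustment over the 3 ratios tested. The adjusted p was 0.0214 when EV 2.8K replicate 3 was left out and 0.123 when EV 2.8K replicate 1 was.

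FLOT2 counts per FLOT1 count were 0.117, 0.129 and 0.125 in EV 2.8K, 0.196, 0.121 and 0.235 in EV 10K, 0.211, 0.254 and 0.222 in EV 100K, and 0.156 in cells. The ratio varied little within EV 100K and within EV 2.8K, which did not overlap, and EV 10K reached into both ranges. The mean log2 ratio was 0.89 higher in EV 100K than in EV 2.8K, and the exact permutation test over the 3 pellets gave p = 0.0571 (adjusted p = 0.0857). Without EV 10K replicate 3 the adjusted p was 0.0321, the lowest when single libraries were left out, and the full range is given below.

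CAV1 counts per FLOT1 count were 0.341, 0.154 and 0.0678 in EV 2.8K, 0.117, 0.137 and 0.0544 in EV 10K, 0.0660, 0.0449 and 0.0463 in EV 100K, and 0.195 in cells. The highest EV 100K library lay just under the lowest EV 2.8K library. The difference in mean log2 ratio, EV 100K minus EV 2.8K, was -1.56, and the exact permutation test gave p = 0.136 (adjusted p = 0.136). Without EV 2.8K replicate 3 the adjusted p was 0.0321, again the lowest when single libraries were left out, with the range given below. The ratio of CAVIN3 to CAVIN1 has no value, since both stood at 0.

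**Figure D3:**
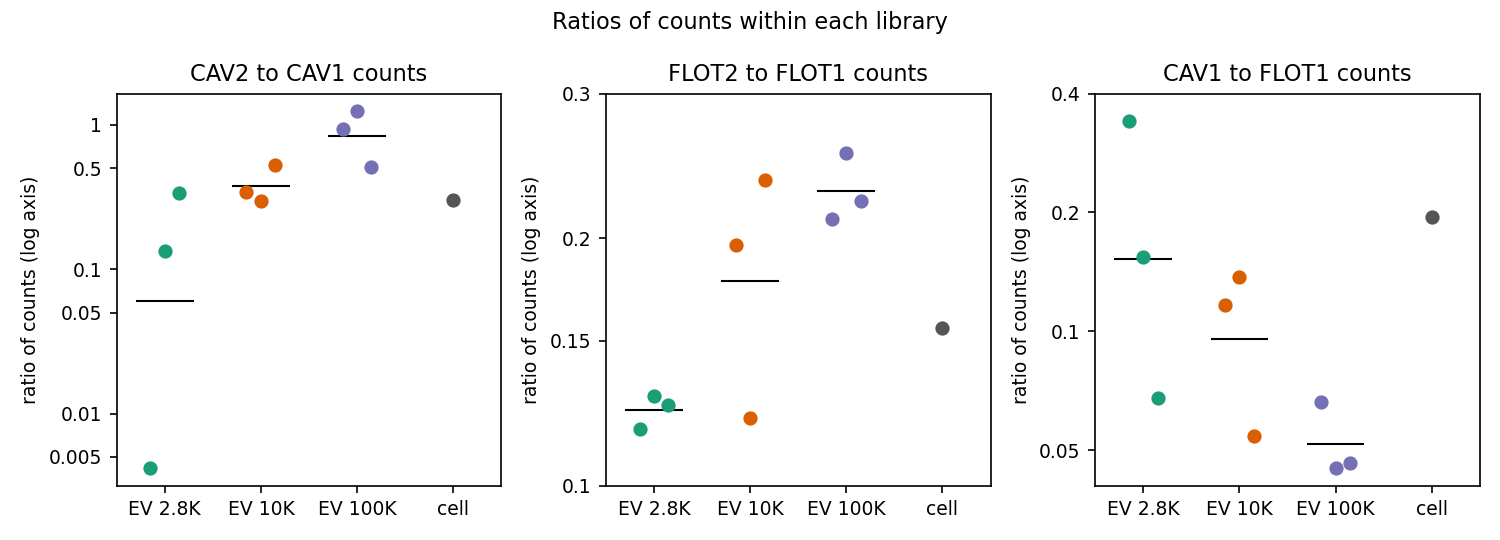
Ratio of the counts of 2 members within each library (y axis, log scale) for CAV2 to CAV1, FLOT2 to FLOT1 and CAV1 to FLOT1, in EV 2.8K, EV 10K, EV 100K and whole cells (x axis); points are libraries and bars geometric means of 3 libraries with a pseudocount of 0.5. The EV 100K and EV 2.8K points do not overlap for FLOT2 to FLOT1, at 0.211 to 0.254 in EV 100K and 0.117 to 0.129 in EV 2.8K.

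Against whole cells there is a single library and therefore no test, and a 2-fold difference of means was used to describe size. The 3 comparisons share that library. Of the 4 members with counts, CAV1 lay past 2-fold in EV 100K, at 14.2 CPM against 54.7 CPM in cells, a ratio of 0.260, with 3 of 3 libraries below. Of the 22370 genes compared, 56.1% lay past 2-fold in either direction there. In EV 2.8K CAV2 lay past it, at 5.44 CPM against 16.4 CPM in cells, a ratio of 0.333 with 3 of 3 libraries below, where 48.7% of genes did. That log2 difference was -1.59 with all libraries and -1.03 without EV 2.8K replicate 1. In EV 10K none of the 4 did, where 52.6% of genes did. The 22370 genes behind these shares include those that met the count filter in a single library. Genes with no count in cells were taken as past 2-fold. The shares thus include sparsely counted genes and are not matched to the members in level.

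The other members lay closer to the cell level. The log2 difference of CAV1 was -0.08 in EV 2.8K over cells, with 2 of 3 libraries above cells, turning to 0.04 with DESeq2 size factors and 0.26 without replicate 3, and -0.50 in EV 10K over cells. CAV2 stood at -0.26 in EV 10K and -0.38 in EV 100K over cells. FLOT1 stood at 0.18 in EV 2.8K with 2 of 3 libraries above cells, 0.45 in EV 10K with 3 of 3 libraries above cells, and -0.02 in EV 100K, which turned to 0.13 with DESeq2 size factors. FLOT2 stood at -0.14 in EV 2.8K, with 2 of 3 libraries above cells and 0.11 without replicate 1, and at 0.69 in EV 10K and 0.54 in EV 100K with 3 of 3 libraries above cells in each. Library totals alone shift the median of all genes to -0.21 for EV 2.8K, -0.37 for EV 10K and -0.54 for EV 100K over cells, where TMM gives -0.17 for EV 100K, and CAV1 in EV 100K then stood at -2.32.

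The other caveola genes were read from the same test: 10 of the 12 listed had enough counts. In EV 100K against EV 2.8K 1 rose and 4 fell, 5 of 10, where 25.8% of all genes were called. The list's median was -0.88 (log2), against -0.06 over all genes. DNM2, the dynamin that cuts pits from the membrane, averaged 75.8 CPM in EV 100K and 297 CPM in EV 2.8K and fell by 1.99 (SE 0.21, edgeR adjusted p = 1.35e-06). EHD1 and EHD4, ATPases of membrane recycling, fell by 1.43 (SE 0.25) and 1.63 (SE 0.28), with edgeR adjusted p of 0.000292 and 0.000228. ROR1, a receptor tyrosine kinase reported to hold caveolar proteins together, fell by 1.56 (SE 0.41, edgeR adjusted p = 0.00778), and without EV 100K replicate 3 its adjusted p was 0.0588. PACSIN3, an F-BAR protein that bends membrane, rose by 0.77 (SE 0.25, edgeR adjusted p = 0.0318), a call that did not hold with library totals alone (0.0928), with no filter (0.0719), or when EV 2.8K replicate 3, or else any of the EV 100K libraries, was left out (0.0566 to 0.147). EHD2, the ATPase at the neck of caveolae, had a log2 fold change of -0.78 (SE 0.64) and did not pass (edgeR adjusted p = 0.444).

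In EV 100K against EV 10K, 3 of the 10 caveola genes fell and none rose, where 10.9% of all genes were called, with a list median of -0.35 against 0.01 over all genes. DNM2 fell by 1.08 (SE 0.20, edgeR adjusted p = 0.0018). EHD1 fell by 0.83 and EHD4 by 0.91 (edgeR adjusted p = 0.0373 and 0.0375), and both calls were lost with DESeq2 size factors (0.0590 and 0.0546) and without several single libraries, among them EV 100K replicate 1 (0.178 and 0.229). In EV 10K against EV 2.8K DNM2 fell by 0.91 (SE 0.20, edgeR adjusted p = 0.0092) and ROR1 by 1.52 (SE 0.41, adjusted p = 0.0306), 2 of 10 where 6.38% of all genes were called, with a list median of -0.50 against -0.01 over all genes. Without EV 10K replicate 2 or 3 the adjusted p of DNM2 was 0.0596 or 0.0589. ROR1 kept its call without EV 2.8K replicate 3 and lost it without any of the other EV libraries, at up to 0.104, as it did with no filter (0.0674) and in the fit of the 6 libraries alone (0.0825).

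The relatives of the flotillins in the SPFH family share their membrane-binding domain, and 7 of 9 listed were tested. In EV 100K against EV 2.8K 3 of 7 fell and none rose, where 25.8% of all genes were called, and the list median was -1.17 against -0.06 over all genes. These were PHB and PHB2, the prohibitins of the inner mitochondrial membrane, at -1.26 (SE 0.23) and -1.71 (SE 0.29), and STOML2, a mitochondrial stomatin relative, at -1.17 (SE 0.28), with edgeR adjusted p of 0.000508, 0.000257 and 0.00419. The same 3 fell in EV 100K against EV 10K, by 1.41, 1.04 and 1.27, where 10.9% of all genes were called and the list median was -0.80 against 0.01 over all genes. PHB2 no longer passed there once any EV 100K library, EV 10K replicate 1 or EV 10K replicate 2 was left out (edgeR adjusted p 0.0662 to 0.134). The proteins of these 3 genes are mitochondrial, and mitochondrially encoded counts were also lowest in EV 100K, at the shares given above. The part of that in the difference was not tested. PHB has processed pseudogenes, and how reads shared with them were counted is not stated. STOM, a plasma membrane stomatin, had a log2 fold change of -3.14 (SE 1.18) and did not pass (edgeR adjusted p = 0.0595). It passed with DESeq2 (adjusted p = 0.00782), in edgeR on the 6 libraries compared (0.0404) and without EV 2.8K replicate 3 (0.0459). In EV 10K against EV 2.8K none of the 7 was called, against 6.38% of all genes.

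For the clathrin route of uptake, all 15 listed genes were tested, and 2 rose and 4 fell in EV 100K against EV 2.8K, 6 of 15 where 25.8% of all genes were called, with a list median of -0.01 against -0.06 over all genes. AP2M1, an adaptor subunit, fell by 1.90 (SE 0.19, edgeR adjusted p = 9.84e-07) and CLTC, the clathrin heavy chain, by 1.30 (SE 0.21, adjusted p = 0.000118). AP2A2, another adaptor subunit, rose by 1.04 (SE 0.23, adjusted p = 0.00232). These 3 kept their calls in all 15 alternatives. Of the other 3, named after their values were seen, EPS15, which rose, and HIP1R, which fell, each lost the call in 6 alternatives, and AP2B1, which fell, lost it in 2. In EV 100K against EV 10K 2 of 15 fell and none rose, where 10.9% of all genes were called. AP2M1 fell by 1.69 and CLTC by 0.84 (edgeR adjusted p = 1.86e-05 and 0.0113). CLTC no longer passed once EV 100K replicate 1 (0.0680) or EV 10K replicate 3 (0.0618) was left out. In EV 10K against EV 2.8K none of the 15 was called, against 6.38% of all genes.

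**Figure D4:**
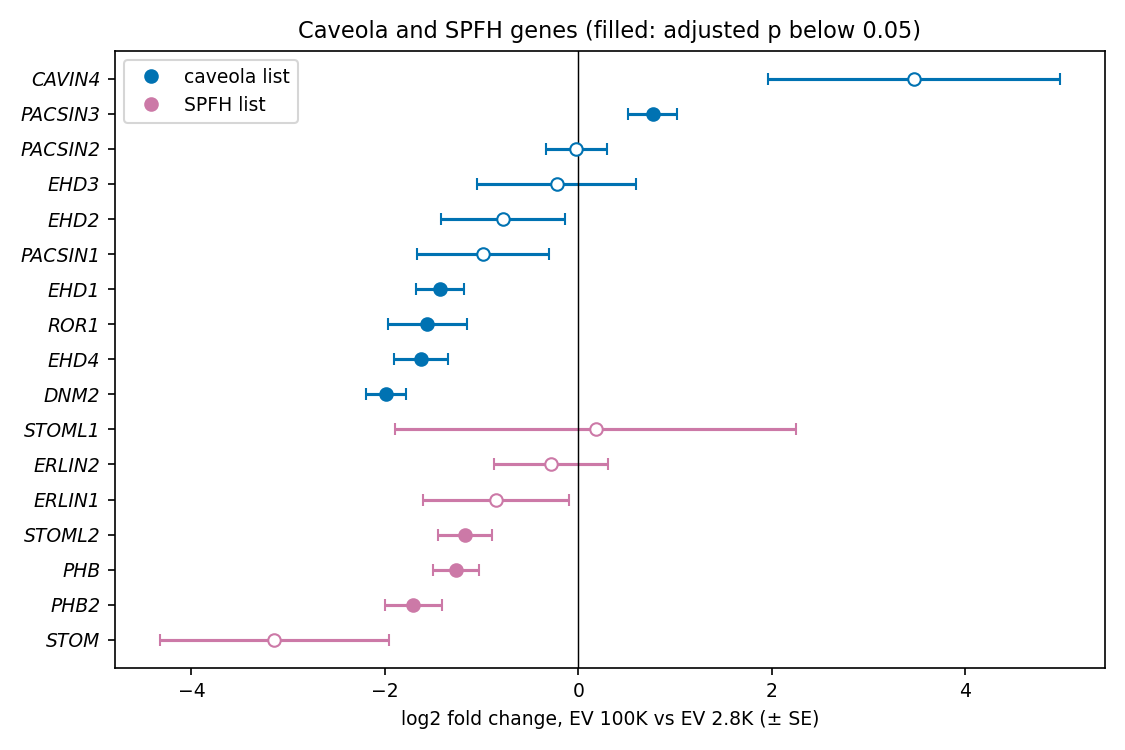
Log2 fold change, EV 100K vs EV 2.8K, from edgeR (x axis, ± SE) of the tested genes of the caveola list (top) and the SPFH list (bottom); filled points passed at an adjusted p below 0.05. DNM2 (-1.99), EHD4, ROR1 and EHD1 lie left of 0, PACSIN3 (0.77) right of it, and the widest bars belong to genes with few counts such as CAVIN4.

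The genes most like each member over the 9 EV libraries were read off as Pearson's r of log2 CPM among 8790 protein-coding genes, which share libraries and depth, as a description. For CAV1 these were ATG12 (r = 0.98), LENG1 (0.97) and DYNC1I2 (0.96). LENG1, for example, averaged 44.9 CPM for EV 2.8K, 29.6 CPM for EV 10K and 15.7 CPM for EV 100K. For CAV2 they were TARBP2 (r = 0.98), TOMM70 (0.97) and ARL3 (0.97), and without EV 2.8K replicate 1 their r was 0.885, 0.649 and 0.867. FLOT1 was most like ARL2 (r = 0.97), TPGS2 (0.96) and ALDOC (0.95), and FLOT2 most like RBMXL1 (0.96), DUSP3 (0.94) and UBE2V2 (0.93). Without EV 2.8K replicate 1 these r were 0.952, 0.922 and 0.921 for FLOT1, and 0.895, 0.848 and 0.844 for FLOT2. A high r does not mean a change of like size. ALDOC averaged 22.7 CPM in EV 2.8K and 4.11 CPM in EV 100K, where FLOT1 averaged 318 and 276 CPM.

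Markers of caveolin-rich cell types were read in the same libraries. Of 7 endothelial genes 3 or 4 had counts in each group, and they summed to 3.14 to 10.1 CPM in EV 2.8K, 5.92 to 12.5 CPM in EV 10K, 4.41 to 6.25 CPM in EV 100K and 10.5 CPM in cells, with TEK and CLDN5 at 0 throughout. Of 4 adipocyte genes 1 or 2 had counts in each group, and they summed to at most 9.69 CPM in EV libraries and 3.79 CPM in cells, with ADIPOQ and LEP at 0 throughout. Of 8 smooth muscle and fibroblast genes 1 to 5 had counts in each group, and they summed to at most 27.5 CPM in EV libraries, in EV 2.8K, and 10.1 CPM in cells, with DCN and LUM at 0 throughout. Most of that sum was COL1A1, a collagen chain, which averaged 14.6 ± 12.2 CPM in EV 2.8K (lowest library 3.17, highest 27.5), 2.63 ± 1.17 CPM in EV 10K and 2.46 ± 1.12 CPM in EV 100K (SD, n = 3 each), against 9.19 CPM in cells. Its mean in EV 100K was below its mean in EV 2.8K, as was that of CAV1. That difference did not pass in edgeR with all 9 libraries. It passed in 2 of 15 alternatives, with DESeq2 (adjusted p = 0.0186) and in edgeR without EV 2.8K replicate 2 (0.0301). The part of COL1A1 in the CAV1 result was not tested. Of 8 blood and serum genes 0 to 3 had counts in each group, and they summed to 0 CPM in EV 2.8K and EV 100K, up to 3.91 CPM in EV 10K and 1.06 CPM in cells.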

How the data were processed

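Total RNA of 9 EV libraries and 1 cell library of PC3 was measured. Per the labels' protocols, Trizol was used for extraction and a stranded SMARTer total RNA kit for the libraries. The authors' tools, per the submitters' processing notes, were featureCounts 1.6.3, STAR 2.6.1d, bcl2fastq 2.19.1.403 and cutadapt 2.7, with the build GRCh38; no annotation is stated there. The deposited values are whole-number counts per gene, not normalized. Symbols, coordinates and sequences were taken by identifier from GENCODE release 29, and all 45574 GENCODE identifiers of the table matched.

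Differences between pellets were tested on the 9 EV libraries with edgeR 4.0.16 in R 4.3.3: filterByExpr with a minimum count of 10, TMM, robust quasi-likelihood F-tests, and Benjamini-Hochberg adjustment over 15525 genes at a threshold of 0.05. This left 6 residual degrees of freedom, with a median prior of 11.7. Of the 6 members 4 passed the filter. CPM for levels used TMM factors of all 10 libraries. Ratios used a pseudocount of 0.5 and a further planned ratio, CAVIN3 to CAVIN1, could not be computed, so adjustment was over 3. Genes like a member needed a mean of at least 10 CPM over the EV libraries, with a prior count of 2. The edgeR script was tested on simulated data. Totals ranged from 5424964 to 28735081 counts, and intervals or floors reflect counting error alone because reads are not independent molecules. No libraries of a group agreed within sampling noise. Sequence of the cavins is not reported here. The members and gene lists were chosen with earlier results of these data known. All 6 members and the caveola and SPFH genes could be named under the plan. Of the clathrin genes it allowed the 3 with the smallest p in EV 100K against EV 2.8K. Not every caveola or SPFH gene is named here, and EPS15, HIP1R and AP2B1 were named after their values were seen. Alternatives were other scalings, no filter, DESeq2 1.42.0, a fit of the 6 libraries compared, the set number as a block, a pseudocount of 1 and leaving out each EV library.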

Additional observations from a re-analysis of the deposited data

How the results depend on the processing

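The call of CAV1 in EV 100K against EV 2.8K held under every alternative run, and no alternative called CAV2 or FLOT2. In EV 100K against EV 10K the fit of the 6 libraries alone called 2 members, the other being FLOT1, and leaving out single libraries gave 0 to 1. The number of all genes called there was 1697, with 2777 in the fit of the 6 libraries, and leaving out single libraries gave 979 (without EV 100K replicate 1) to 2548 (without EV 2.8K replicate 1), with 1016 without EV 100K replicate 3 and 1032 without EV 10K replicate 3. In EV 10K against EV 2.8K 990 genes were called, with 1635 by DESeq2, 561 in the fit of the 6 libraries and 557 (without EV 10K replicate 1) to 1173 without single libraries. There 645 rose and 345 fell, and with library totals alone 485 rose and 412 fell, where the median of all genes shifted to -0.12. Leaving out single libraries gave log2 fold changes of -0.35 to 0.18 for CAV2 and -0.38 to 0.12 for FLOT2 in EV 100K over EV 10K, positive without EV 100K replicate 3 for CAV2 and without EV 10K replicate 3 for FLOT2. The adjusted p of the ratios across single libraries left out was 0.0214 to 0.241 for CAV2 to CAV1, 0.0321 to 0.241 for FLOT2 to FLOT1 and 0.0321 to 0.286 for CAV1 to FLOT1. The causes were not tested.

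The main fit did not pair libraries by set number, because no label says what the number marks. Libraries with the same set number correlated at -0.00907 to 0.0481 in their deviations from the group means. Of the 9 correlations between libraries with the same number 8 were positive, a hint from the data that the labels do not explain. Between different numbers 4 of 18 were. Deviations from a group mean cancel within the group, so positive values for the same number force lower ones between different numbers. The second count is therefore no separate evidence. With the set number as a replicate block, edgeR called CAV1 alone, at -1.74 (adjusted p = 0.00188) in EV 100K over EV 2.8K and -1.34 (adjusted p = 0.0236) in EV 100K over EV 10K, and 3964, 1875 and 1075 of all genes in EV 100K against EV 2.8K, EV 100K against EV 10K and EV 10K against EV 2.8K. The blocked exact permutation p of the ratios, adjusted, was 0.0833, 0.167 and 0.0833 for CAV2 to CAV1, FLOT2 to FLOT1 and CAV1 to FLOT1. Blocks allow far fewer assignments than the unblocked test, so a single ratio could not pass after adjustment however clear its order. No conclusion is drawn from these values. CAV2 had 4 to 129 counts per EV library.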
